A study of Zanthoxylum armatum with 15 samples.

Results

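Mevalonate kinase and phosphomevalonate kinase act one after the other in the mevalonate pathway of Zanthoxylum armatum, the green Sichuan pepper, and were each represented by a unigene that the study had named. A unigene is a gene model assembled from the reads themselves, without a genome. Cluster-12235.37800 carries the name MVK1 and Cluster-12235.28045 the name PMVK, and they are 2 of the 111318 unigenes in the tables. The names rest on matches to Arabidopsis proteins and to metabolic pathway entries that the study lists, since the tables themselves hold only identifiers. Both were selected by the study because they were higher in fruits than in every other organ of these same libraries. The fruit values are therefore given as a description without a test, and the tests concern the 4 other organs. The selection did not compare those organs with one another. Each of them was set against fruits in it, however, so the tests are not fully independent of the choice.

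RNA was sequenced from fruits, leaf buds, mature leaves, stems and roots of trees of the variety 'Hanyuan putaoqing', all untreated and sampled in May. There were 3 libraries per organ and 15 in all. According to the paper the fruits were then at full size, so the fruit values stand for that stage only. The trees were 3 years old and each library came from material of 3 plants mixed together, so the spread between libraries is not that between single plants. Whether libraries of different organs came from the same plants is not stated. Estimated counts summed to between 18802274 and 24081708 per library. Replicates of an organ differed by more than sampling noise in every pair, most of all root replicate 3 from root replicates 1 and 2, with chi-square values of 15.2 and 20.4 per unigene against 3.15 between those other two. As a check of the organ labels, the summed FPKM of 20 unigenes for light-harvesting antenna proteins lay between 17.5 and 27.4 in roots and between 6503 and 27688 in the libraries of the green organs. This check separates roots from the green organs only. The stem tables carry an internal sample name (SH) other than that of the labels (St), and their identity as stems rests on the list that ties each file to its sample. FPKM are fragments scaled to the length of the unigene and to the total of the library.

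The mevalonate pathway builds the precursors of sterols, sesquiterpenes and other isoprenoids outside the plastid. Acetoacetyl-CoA thiolase (ACAT2) joins acetyl-CoA units, hydroxymethylglutaryl-CoA synthase (HMGS) adds a further one, and hydroxymethylglutaryl-CoA reductase (HMGR) forms mevalonate, a step long regarded as a main point of control. Mevalonate kinase then transfers a phosphate from ATP to mevalonate, phosphomevalonate kinase transfers another to its product, and a decarboxylase yields isopentenyl diphosphate. Plants make the same precursor in plastids by the methylerythritol phosphate (MEP) pathway, which supplies monoterpenes, the aroma compounds for which the pericarp of this fruit is known.

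MVK1 was a transcript of moderate level that was highest in fruits and, outside fruits, highest in leaf buds. Its FPKM was 7.52, 9.26 and 7.79 in fruit replicates 1 to 3 and 5.09, 4.85 and 4.23 in those of leaf buds. In mature leaves it was 1.67, 2.68 and 3.46, in stems 2.89, 2.95 and 2.44, and in roots 2.77, 2.27 and 1.79. Every fruit library was above every other library, and the lowest fruit value was 1.48 times the highest value elsewhere. By FPKM, all leaf bud libraries were likewise above all libraries of mature leaves, stems and roots, which overlapped one another. The means were 8.19 ± 0.94 in fruits, 4.72 ± 0.44 in leaf buds, 2.76 ± 0.28 in stems, 2.603 ± 0.897 in mature leaves and 2.28 ± 0.49 in roots (SD, n = 3 each). The last 3 organs in that order lay within 1 SD of their neighbours. By FPKM, MVK1 stood above 74.3% to 78.6% of the unigenes detected in a fruit library and above 43.8% to 53.5% of those in a root library.

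The depth behind these values was small for MVK1. Its estimated count ran from 26.2 in mature leaf replicate 1 to 174.0 in fruit replicate 2, and only 1060 fragments were assigned to it over all 15 libraries. The exact 95% Poisson interval, which covers counting error only, was 1.09 to 2.44 FPKM for mature leaf replicate 1 and 2.64 to 4.45 FPKM for mature leaf replicate 3, so these replicates of 1 organ differed by more than counting error. Mature leaves had the widest relative spread of MVK1, with an SD of 34.5% of the mean, against 9.40% in leaf buds and 10.1% in stems.

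PMVK was the more evenly distributed of the pair. Its FPKM was 11.1, 13.5 and 12.1 in fruits, 7.01, 6.70 and 7.26 in leaf buds, and 7.42, 6.80 and 7.35 in stems. Roots had 7.97, 6.35 and 6.16, and mature leaves 5.37, 5.34 and 5.86. The fruit libraries did not overlap with any other, and their lowest value was 1.40 times the highest value elsewhere, in root replicate 1. Leaf buds, stems and roots overlapped, while the mature leaf libraries all lay below them on this scale. The means were 12.3 ± 1.20 in fruits, 7.19 ± 0.34 in stems, 6.99 ± 0.28 in leaf buds, 6.83 ± 0.99 in roots and 5.52 ± 0.29 in mature leaves (SD, n = 3 each), and stems, leaf buds and roots lay within 1 SD of their neighbours in that order. PMVK was measured with more fragments than MVK1, 349 to 1047 per library and 8192 in all. FPKM take account of the assembled length, and the FPKM of PMVK exceeded that of MVK1 in every library. Whether either unigene covers its whole transcript is not known, which limits this comparison.

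**Figure D1:**
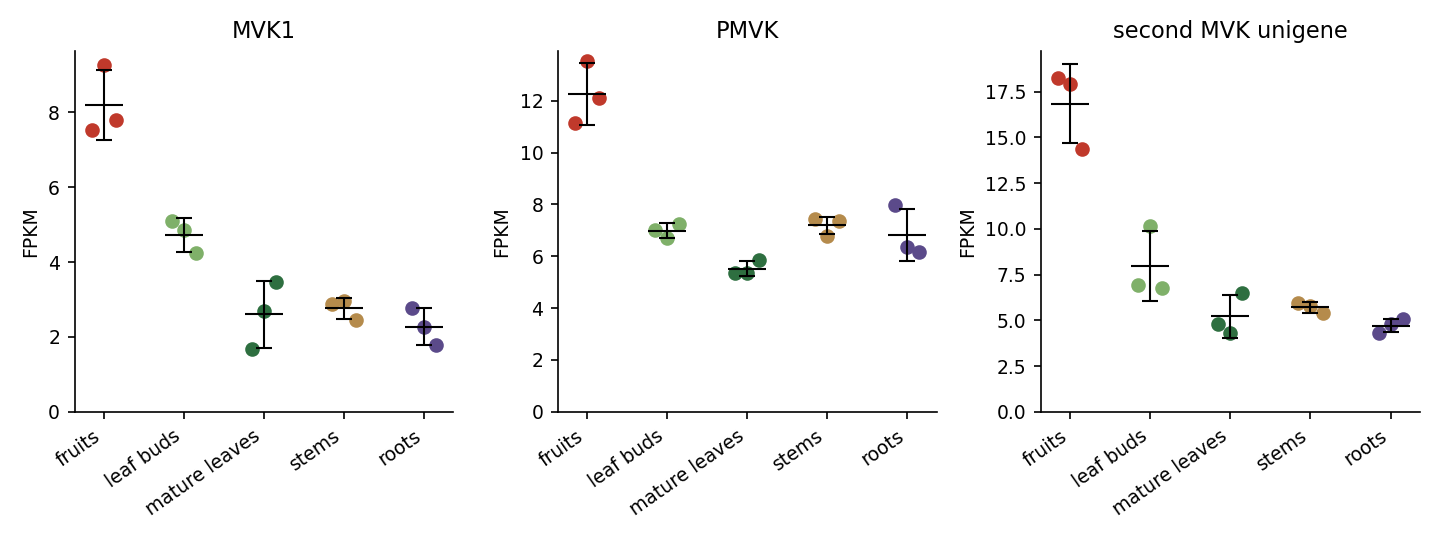
FPKM (vertical axes, from 0) of MVK1, PMVK and the second mevalonate kinase unigene in the 3 libraries of each organ (points) with the mean and SD (black). All fruit libraries lie above all others in each panel, MVK1 has leaf buds in between at 4.23 to 5.09, and PMVK is between 5.34 and 7.97 in the 12 libraries of the other organs.

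Differences between the 4 organs other than fruits were tested with edgeR's quasi-likelihood test on counts, with TMM scaling between libraries and p-values adjusted by the Benjamini-Hochberg method over all 57488 unigenes tested. MVK1 differed among the 4 organs in 1 joint test (adjusted p = 0.00413), as did 77.8% of all unigenes tested, and its F statistic was above that of 35.6% of them. PMVK did not pass (adjusted p = 0.466), and its F statistic was above that of only 6.06% of all unigenes. In bulk tissue such differences cannot separate fewer cells that use a gene from less RNA per cell.

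In leaf buds MVK1 was 1.99-fold higher than in roots (log2 fold change 0.996 ± 0.238 SE, 95% interval 0.50 to 1.49, adjusted p = 0.00115). Against stems, leaf buds had 1.64 times as much MVK1 (log2 fold change 0.72 ± 0.23, adjusted p = 0.0193). Between leaf buds and mature leaves the log2 fold change was 0.37 ± 0.23 (adjusted p = 0.197), though with library totals in place of TMM factors it was 0.86 and passed (adjusted p = 0.00413). Between stems and roots it was 0.28 ± 0.25 (adjusted p = 0.358). MVK1 was lower in roots than in mature leaves (log2 fold change -0.62 ± 0.25, adjusted p = 0.0402), and the difference of stems from mature leaves did not pass (-0.34 ± 0.24, adjusted p = 0.263). Thus 3 of the 6 pairs passed an adjusted p of 0.05 for MVK1. Of all unigenes, 60.2% passed between leaf buds and roots, 36.2% between leaf buds and stems, 51.4% between leaf buds and mature leaves, 55.5% between stems and roots, 50.7% between stems and mature leaves and 58.1% between roots and mature leaves.

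Root replicate 3, the library farthest from the others of its organ, did not decide the first: without it leaf buds minus roots was 0.90 (adjusted p = 0.00457) for MVK1 and -0.04 (0.801) for PMVK, and the joint test gave 0.00863 and 0.459. The 3 results of MVK1 were not equally stable. The difference of leaf buds from roots passed an adjusted p of 0.05 in all 24 alternative fits, with adjusted p between 0.000283 and 0.0116. That of leaf buds from stems was lost without leaf bud replicate 1 (adjusted p = 0.0783), leaf bud replicate 2 (0.0584) or stem replicate 3 (0.0839). That of roots from mature leaves passed in only 9 of 24 alternatives, with log2 fold changes between -0.89 and -0.18 and adjusted p between 0.00394 and 0.570. It was lost without any 1 of the leaf bud libraries, without mature leaf replicate 2 or 3, root replicate 2 or 3, or stem replicate 1 or 3, and the highest adjusted p among these was 0.279, without mature leaf replicate 3. Without that same library MVK1 passed between leaf buds and mature leaves (log2 fold change 0.64, adjusted p = 0.0446).

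For PMVK no pair passed. The log2 fold changes were -0.01 ± 0.11 for leaf buds minus roots (adjusted p = 0.925), -0.12 ± 0.11 for leaf buds minus stems (0.408) and -0.14 ± 0.11 for leaf buds minus mature leaves (0.283). They were 0.11 ± 0.11 for stems minus roots (0.411), -0.02 ± 0.11 for stems minus mature leaves (0.891) and -0.13 ± 0.11 for roots minus mature leaves (0.317). The 95% intervals of all 6 differences lay between -0.37 and 0.33, which leaves out differences of the size that MVK1 had between leaf buds and roots. That the changes of the pair differ from each other was not tested.

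The study's thresholds for a differentially expressed gene also ask for an absolute log2 fold change over 1. None of the 12 differences of the members met both thresholds, whereas these were met by 41.4% of all unigenes between leaf buds and roots, 39.9% between roots and mature leaves, 35.3% between stems and roots, 33.9% between stems and mature leaves, 33.7% between leaf buds and mature leaves and 18.7% between leaf buds and stems. MVK1 between leaf buds and roots was the closest, at 0.996. It passed 1 without root replicate 1 (1.17), without mature leaf replicate 1, 2 or 3 (1.03, 1.03 and 1.003), without any 1 fruit library (1.003 each) and without stem replicate 2 (1.002).

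**Figure D2:**
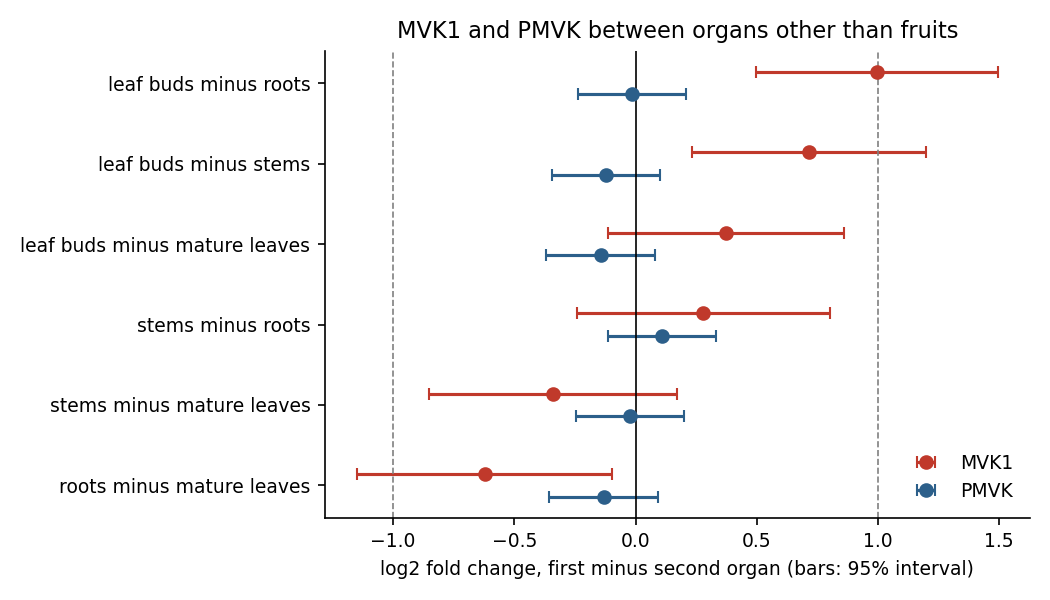
Log2 fold changes (horizontal axis, first minus second organ) of MVK1 (red) and PMVK (blue) in the 6 pairs of organs other than fruits, with 95% intervals as bars and dashed lines at the threshold of 1 in either direction. Intervals of PMVK all include 0 and span -0.37 to 0.33, and those of MVK1 leave out 0 for leaf buds against roots, leaf buds against stems and roots against mature leaves.

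The place of mature leaves depended on the scale. TMM scaling, which assumes that most unigenes do not change, gave factors of 0.813 to 0.826 in mature leaves and 0.867 to 0.901 in fruits against 1.04 to 1.18 in the other organs, so equal FPKM correspond to higher scaled values in the former. On the TMM scale PMVK averaged 22.0 ± 1.32 CPM (counts scaled to a common library total) in mature leaves, 21.7 ± 0.98 in stems, 20.1 ± 2.52 in roots and 19.9 ± 0.32 in leaf buds, so mature leaves, lowest by FPKM, came first outside fruits. With library totals alone PMVK was lower in mature leaves than in stems by 0.37 on the log2 scale (adjusted p = 0.00790), than in leaf buds by 0.34 (0.0124) and than in roots by 0.31 (0.0204), and differed among the 4 organs (0.0179). On that scale the median of all unigenes was itself above 0. It lay at 0.28 for stems minus mature leaves, 0.45 for leaf buds minus mature leaves and 0.43 for roots minus mature leaves. Relative to that median PMVK was at 0.09, -0.11 and -0.11 in the same pairs, values close to the 0.06, -0.14 and -0.13 obtained relative to the median with TMM. On the TMM scale MVK1 was at 3.36 CPM in mature leaf replicate 3 and at 2.86 in leaf bud replicate 3. These organs, apart by FPKM, thus overlapped. For MVK1 the order of leaf buds before stems before roots was the same on both scales, while stems minus mature leaves changed sign, from -0.34 with TMM to 0.05 with library totals. Leaf buds minus mature leaves then passed for MVK1, at 0.86 (adjusted p = 0.00413) in place of 0.37 (0.197), and roots minus mature leaves no longer did, at -0.18 (0.570) in place of -0.62 (0.0402). Relative to the median of all unigenes these values were 0.41 and -0.60, against 0.38 and -0.62 with TMM.

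A second unigene, Cluster-12235.47554, was also matched to Arabidopsis mevalonate kinase, and the study likewise selected it as higher in fruits. Its FPKM was 18.2, 17.9 and 14.4 in fruits, 6.94, 10.2 and 6.79 in leaf buds, 4.81, 4.30 and 6.52 in mature leaves, 5.96, 5.81 and 5.38 in stems, and 4.31, 4.79 and 5.05 in roots. It was above MVK1 in every library, and its organs came in the same order as those of MVK1 by mean FPKM. In the tests outside fruits it was higher in leaf buds than in roots (log2 fold change 0.69 ± 0.22, adjusted p = 0.0110) and lower in roots than in mature leaves (-0.55 ± 0.23, adjusted p = 0.0464), while leaf buds against stems did not pass (0.44 ± 0.21, adjusted p = 0.126).

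The estimated counts of MVK1 were not whole numbers in 5 of 15 libraries (tolerance 0.001), which is how counting programs report fragments divided between similar sequences, while those of PMVK and of the second unigene were whole in all 15. Counts, FPKM and library totals together imply an effective length of about 788 bases for MVK1, 481 for the second unigene and 3251 for PMVK. Whether both mevalonate kinase unigenes are pieces of 1 transcript, alleles or separate genes cannot be told from these tables. If they are pieces of 1 transcript, their summed FPKM counts it more than once. With the counts of both added into 1 feature, mevalonate kinase was higher in leaf buds than in roots (log2 fold change 0.83 ± 0.18, adjusted p = 0.000450) and in stems (0.57 ± 0.18, adjusted p = 0.0149), and lower in roots than in mature leaves (-0.58 ± 0.19, adjusted p = 0.0111), the same 3 pairs as for MVK1 alone.

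MVK1 made up a similar part of both mevalonate kinase unigenes in every organ. Its share of their summed FPKM was 32.8% ± 3.18 in fruits, 37.7% ± 5.06 in leaf buds, 32.9% ± 6.49 in mature leaves, 32.5% ± 1.24 in stems and 32.5% ± 6.48 in roots (SD, n = 3 each). The single libraries ranged from 25.8% in mature leaf replicate 1 to 42.3% in leaf bud replicate 1, and the ranges of all organs overlapped.

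The ratio of MVK1 to PMVK within a library needs no scaling between libraries. It was 0.676, 0.685 and 0.643 in fruits, 0.726, 0.724 and 0.583 in leaf buds, 0.311, 0.502 and 0.590 in mature leaves, 0.389, 0.434 and 0.332 in stems, and 0.348, 0.357 and 0.291 in roots. Fruits and leaf buds thus had similar ratios, 0.668 ± 0.022 and 0.678 ± 0.082 (SD, n = 3 each), and neither overlapped with stems (0.385 ± 0.051) or roots (0.332 ± 0.036). Mature leaves spanned the gap, with replicate 1 among the roots and stems and replicate 3 within the range of leaf buds. The leaf bud ratio was 2.04 times that of roots, and between 1.92 and 2.18 times when any 1 of the libraries of these organs was left out. For both mevalonate kinase unigenes summed, the ratio to PMVK was 2.05 ± 0.25 in fruits, 1.83 ± 0.37 in leaf buds, 1.41 ± 0.26 in mature leaves, 1.18 ± 0.11 in stems and 1.04 ± 0.13 in roots.

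**Figure D3:**
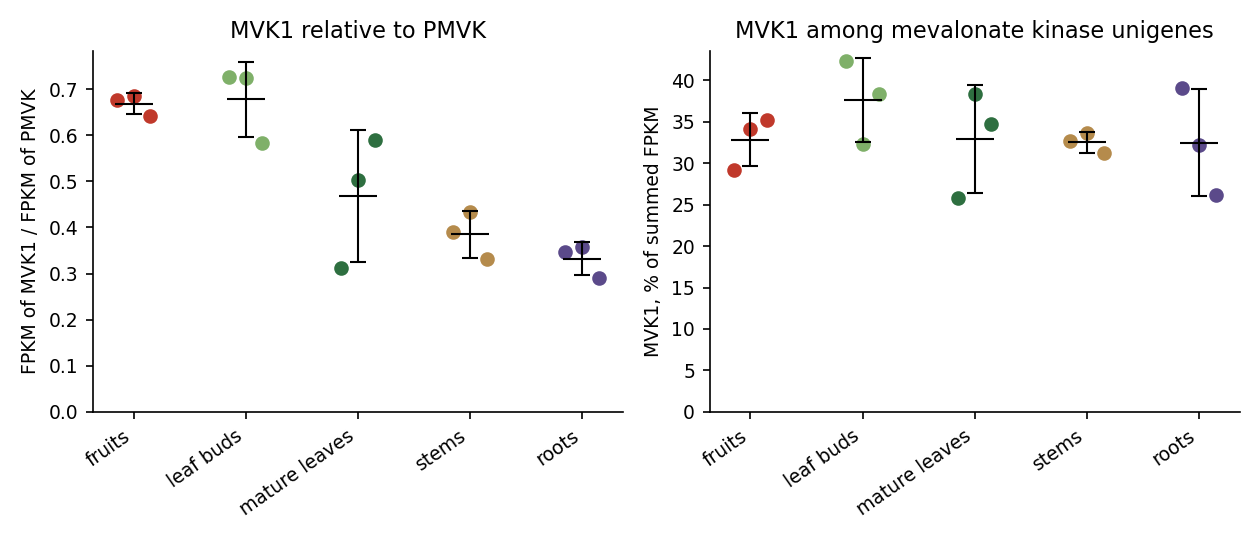
Left, FPKM of MVK1 divided by that of PMVK in each library, and right, MVK1 as a percentage of the summed FPKM of both mevalonate kinase unigenes (points, with mean and SD in black, n = 3 per organ). The ratio to PMVK is 0.583 to 0.726 in fruits and leaf buds and 0.291 to 0.434 in stems and roots, while the share among mevalonate kinase unigenes lies between 25.8% and 42.3% throughout.

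In fruits both members were higher than in each other organ, which is how they were chosen. MVK1 was 4.44-fold higher than in roots, 3.65-fold than in stems, 2.88-fold than in mature leaves and 2.22-fold than in leaf buds. PMVK was 2.23-fold higher than in roots, 2.07-fold than in stems, 2.04-fold than in mature leaves and 2.25-fold than in leaf buds. Being called higher in fruits was the case for 17.7% of all unigenes against roots, 11.9% against stems, 12.2% against mature leaves and 13.9% against leaf buds, and for 1395 unigenes in all 4 comparisons. PMVK lay at the edge of that set. Its smallest log2 fold change, 1.03 against mature leaves, was undercut by only 25 of the 1395 unigenes (1.79%), and that of MVK1, 1.15 against leaf buds, by 156 (11.2%), with a median of 2.12 over the set.

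Whether the members exceeded the threshold of 1 depended on the scaling between libraries. With library totals alone the log2 fold change of PMVK in fruits fell to 0.84 against roots, 0.78 against stems and 0.80 against leaf buds and was 1.15 against mature leaves, and that of MVK1 against leaf buds became 0.79. The median of all unigenes was at -0.31, -0.22, -0.42 and 0.03 in these comparisons against roots, stems, leaf buds and mature leaves, and relative to it PMVK was 1.15, 1.001, 1.22 and 1.12 higher in fruits and MVK1 2.13, 1.82, 1.20 and 1.61. With TMM, PMVK was also under 1 without fruit replicate 2, at 0.98 against stems and 0.97 against mature leaves, and without mature leaf replicate 1, at 0.999 against mature leaves. When unigenes had to reach 1 CPM in 3 libraries to be tested, it was at 0.998 against mature leaves. Without root replicate 3 the values against roots were 2.06 for MVK1 and 1.14 for PMVK. For MVK1 the value against leaf buds stayed between 1.07 and 1.24 when any 1 library was left out.

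**Figure D4:**
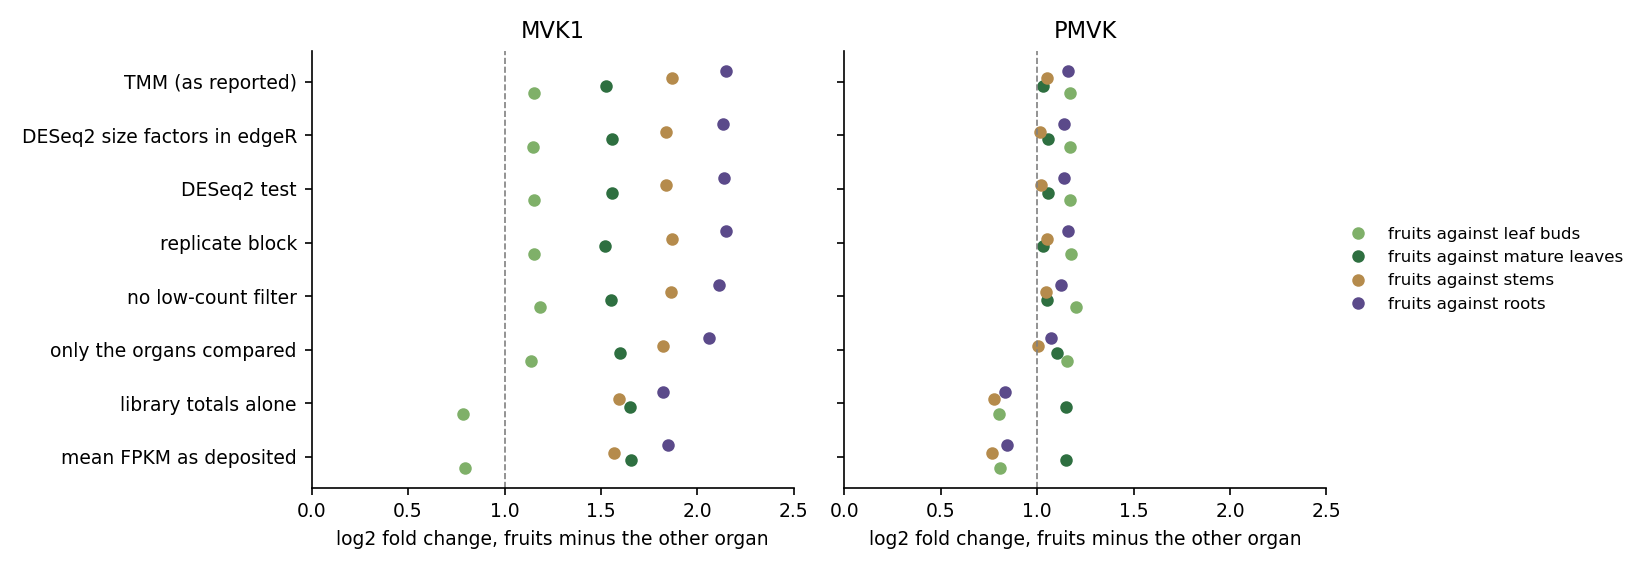
Log2 fold changes of MVK1 (left) and PMVK (right) in fruits against each other organ (coloured points, horizontal axis) under 8 ways of scaling or fitting (rows), with a dashed line at the threshold of 1. With library totals or deposited FPKM, PMVK falls to between 0.77 and 0.84 against roots, stems and leaf buds, and MVK1 to 0.79 against leaf buds.

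Summed over the selected unigenes of each step, mevalonate kinase and PMVK had the lowest FPKM in every organ. Any unigenes of these enzymes that the study did not select are not counted, and the decarboxylase had none on the list. In fruits the summed FPKM of the selected unigenes of each step was 202 ± 11.98 for ACAT2, 143 ± 14.5 for HMGS, 229 ± 28.4 for HMGR, 25.0 ± 2.58 for mevalonate kinase and 12.3 ± 1.20 for PMVK (SD, n = 3 each). In roots these values were 57.7 ± 2.87, 21.2 ± 3.08, 8.83 ± 0.44, 6.99 ± 0.13 and 6.83 ± 0.99. The ratio of fruits to roots in mean FPKM was thus 25.9 for HMGR, 6.74 for HMGS, 3.51 for ACAT2, 3.58 for mevalonate kinase and 1.79 for PMVK. HMGR had 9.15 times the FPKM of both mevalonate kinase unigenes together in fruits and 1.26 times in roots. All of these unigenes were selected as higher in fruits on the same libraries, so that direction is not independent evidence.

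Outside fruits the range of the steps narrowed in pathway order from HMGS onward, but not from ACAT2 to HMGS. This order was not tested. The highest of the 4 organ means in FPKM was 3.83 times the lowest for HMGS, 3.04 times for HMGR, 1.82 times for mevalonate kinase and 1.30 times for PMVK, and it was 2.08 times for ACAT2. The 5 selected unigenes of the pathway other than the members were all higher in leaf buds than in roots at an adjusted p of 0.05, with a median log2 fold change of 1.55 and a range of 0.69 to 2.53, where 32.5% of all unigenes were higher and their median was 0.05. They comprised HMGR (Cluster-12235.40934) at 1.55 ± 0.12, ACAT2 (Cluster-12235.42348) at 1.003 ± 0.088, the HMGS unigenes Cluster-12235.37004 and Cluster-12235.37003 at 2.53 ± 0.16 and 1.60 ± 0.29, and the second mevalonate kinase unigene. Of the same 5, 4 were higher in leaf buds than in stems (median 0.69), against 18.6% of all unigenes (median 0.08), and 4 higher in leaf buds than in mature leaves (median 0.84), against 24.6% (median -0.002). Stems had 3 higher than roots (median 0.75), against 29.1% of all, and roots had 3 lower than mature leaves (median -0.57), against 30.1%, with a median of 0 over all unigenes in both pairs. Only HMGS Cluster-12235.37004 passed between stems and mature leaves, at 1.66 ± 0.16 (adjusted p = 2.13e-08), where 23.4% of all unigenes were higher in stems. All 5 passed the joint test among the 4 organs, as did 77.8% of all unigenes.

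**Figure D5:**
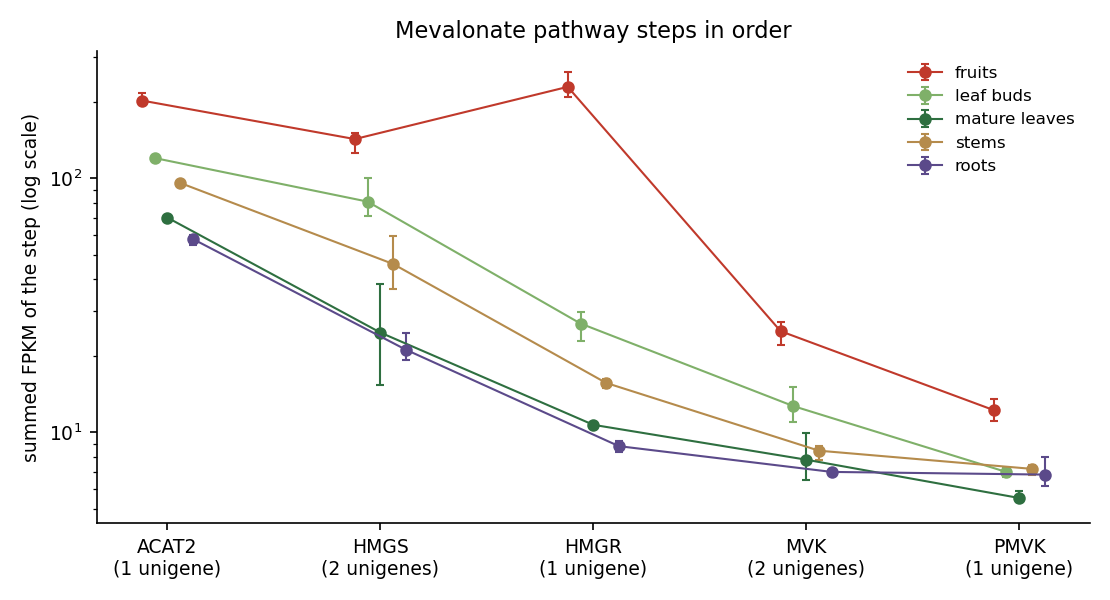
Mean summed FPKM (vertical axis, log scale) of the selected unigenes at each step of the mevalonate pathway in order, for the 5 organs (coloured lines), with bars from the lowest to the highest of 3 libraries. HMGR is at 229 in fruits and between 8.83 and 26.8 elsewhere, while PMVK is at 12.3 in fruits and between 5.52 and 7.19 elsewhere.

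The plastid MEP pathway was represented by 17 unigenes that were likewise selected as higher in fruits. Between leaf buds and roots 9 were higher and none lower at an adjusted p of 0.05 (median log2 fold change 0.49), where 32.5% of all unigenes were higher and 27.7% lower. Values in this pair ran from 2.27 for DXS Cluster-12235.38535, of deoxyxylulose phosphate synthase, which is the entry enzyme, to -0.34 for ISPF Cluster-12235.30082. Between leaf buds and stems 13 were higher and none lower (median 0.57), against 18.6% and 17.6% of all unigenes. Between leaf buds and mature leaves 6 were higher and 8 lower (median -0.33), against 24.6% and 26.8%. Roots had 1 higher and 10 lower than mature leaves (median -0.88), against 28% and 30.1%, and stems 1 higher and 12 lower than mature leaves (median -1.01), against 23.4% and 27.4%. Between stems and roots none were higher and 4 lower (median -0.10), against 29.1% and 26.3%. Whether this list differed from that of the mevalonate pathway was not tested. Of the 4 selected unigenes annotated to geranylgeranyl diphosphate synthase (GGPPS), all 4 were higher in leaf buds than in roots, 3 than in stems and 3 than in mature leaves. The enzyme lengthens the prenyl chain. One of the 4, Cluster-12235.40340, has a match to its small subunit, which the paper describes as inactive. A further 10 tested unigenes came from the part of the terpenoid backbone list of KEGG that could be read here. The unigenes of the mevalonate, MEP and GGPPS lists had been taken out, so this list too is conditioned on the fruit comparisons. At least 1 unigene that remained was itself called higher in fruits than in each other organ. That unigene was also higher in leaf buds than in roots (log2 fold change 2.07). Of the 10, 7 were higher and 1 lower in leaf buds than in roots (median log2 fold change 1.49), against 32.5% and 27.7% of all unigenes. In the joint test among the 4 organs 9 of 10 passed, against 77.8%.

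Likeness of pattern was measured by Pearson's r of log2 CPM across the 12 libraries outside fruits, which share organs and scaling, and is given as a description. MVK1 was at 0.73 with the second mevalonate kinase unigene, 0.73 with HMGR, 0.73 with HMGS Cluster-12235.37003, 0.71 with ACAT2 and 0.54 with HMGS Cluster-12235.37004, and at 0.17 with PMVK. PMVK was between -0.09 and 0.19 with all other unigenes of the pathway. The study listed Arabidopsis matches for unigenes of terpenoid and fatty acid metabolism selected in fruits, and only these could be compared by name. Within that list, those most like MVK1 were DXS Cluster-12235.38538 (0.83) and Cluster-12235.38535 (0.80) and GGPPS Cluster-12235.40340 (0.78). However, 119 of the 57487 other unigenes were more like MVK1 than the first of these. The closest of all were Cluster-12235.45795 (0.95) and Cluster-12235.25057 (0.94), which have no name here. For PMVK the closest unigenes of the same list reached only 0.54 (a match to the ketoacyl-CoA synthase KCS6), 0.43 (a match to the terpene synthase TPS21) and 0.43 (a match to the cytochrome P450 CYP82G1). The closest of all to PMVK were Cluster-12235.36055 (0.91) and Cluster-12235.61173 (0.81). When the fruit libraries were included, r of PMVK rose to 0.86 with MVK1 and 0.93 with HMGR, while for Cluster-12235.61173 it was -0.18. PMVK, MVK1 and HMGR were all selected as higher in fruits, so a rise among them was built into the choice. Within organs, the deviations of MVK1 from its organ means had an r of 0.51 with those of PMVK and 0.31 with those of the second mevalonate kinase unigene over the 15 libraries.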

How the data were processed

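RNA of 5 organs, with 3 libraries per organ, was sequenced by the study on the Illumina HiSeq platform as paired reads and assembled with Trinity. The submitters' processing notes name CASAVA 1.8, and the counting program is not given in the sources read. For each library the authors deposited a table of estimated counts per unigene (expected counts, which need not be whole) and a table column of FPKM, normalised by the authors for length and library total. Expected counts were rounded to whole numbers and fitted in edgeR 4.0.16 (R 4.3.3), with all 15 libraries in 1 fit. The fit used filterByExpr (minimum count 10, minimum total 15), TMM factors and the quasi-likelihood F test. Each unigene had 10 residual degrees of freedom, to which the test adds prior ones estimated over all unigenes. P-values were adjusted over the 57488 unigenes tested. Standard errors were derived from the log2 fold change and its F statistic. FPKM as deposited gave levels and ratios, without a test. Likeness used log2 CPM with a prior count of 2.

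The members and the lists were chosen with earlier results of these data known. Named besides the 2 members are every unigene of the mevalonate list and the extremes of the MEP and prenyl lists. From the study's list of Arabidopsis matches come the 3 unigenes with the highest r to each member. At most 2 unigenes without a name were added per member. Alternatives were DESeq2's size factors, library totals, DESeq2 1.42.0, other low-count filters, unrounded counts, a replicate block, only the organs compared, each library left out, the sum of both mevalonate kinase unigenes, and FPKM. The fit was tested on simulated data. P-values measure the spread between these mixed samples.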

Additional observations from a re-analysis of the deposited data

How the results depend on the processing

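With library totals alone PMVK changed direction, to 0.34 for leaf buds minus mature leaves, 0.031 for leaf buds minus roots, 0.37 for stems minus mature leaves and 0.31 for roots minus mature leaves, and MVK1 to 0.054 for stems minus mature leaves. PMVK then passed across the 4 organs (adjusted p = 0.0179), MVK1 reached 1.04 for leaf buds minus roots and passed for leaf buds minus mature leaves (0.86, adjusted p = 0.00413), and the fruit values moved to 1.82 against roots and 0.79 against leaf buds for MVK1 and to 0.84, 0.78, 0.80 and 1.15 against roots, stems, leaf buds and mature leaves for PMVK. The log2 ratio of mean FPKM gave the same reversals (PMVK 0.34, 0.034, 0.38 and 0.31, MVK1 0.084 in the order above), MVK1 values of 0.86 for leaf buds minus mature leaves and -0.19 for roots minus mature leaves, and fruit values of 1.85, 1.57 and 0.79 against roots, stems and leaf buds for MVK1 and 0.84, 0.77, 0.81 and 1.15 for PMVK. Of the unigenes called, 69.4% were higher in leaf buds than in mature leaves with library totals, in place of 49.8% with TMM, and between fruits and leaf buds 30.7% were higher in fruits in place of 48.0%. The cause of the difference between scales was not tested. PMVK for stems minus mature leaves, near 0 throughout, was also positive with DESeq2's size factors (0.0391), DESeq2's test (0.0388), no low-count filter (0.0075) and only the organs compared (0.0447). MVK1 for leaf buds minus roots was 1.002 with only the organs compared. Leaving out each library in turn gave 0.84 to 1.17 for MVK1, leaf buds minus roots, -0.12 to 0.12 for PMVK in that pair, -0.046 to 0.034 for PMVK, stems minus mature leaves, and 1.09 to 1.28 for PMVK, fruits minus roots. The likeness of Cluster-12235.61173 to PMVK was -0.18 over all 15 libraries. Counts of unigenes called stayed within 1.5 times their values in every alternative run.

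Deviations of libraries with the same replicate number in different organs had correlations between -0.13 and 0.07 in 30 pairs, and 2 of 15 libraries correlated best with their own number. No pairing was therefore used in the main fit. Low correlations between different organs cannot tell whether libraries with the same number came from the same plants. With the replicate number as a block, MVK1 was at 0.996 for leaf buds minus roots (adjusted p = 0.00196), and its difference between roots and mature leaves no longer passed (-0.62, adjusted p = 0.0516). No other call of the members changed with the block. The number of fragments limits MVK1 most, with 26.2 counts in its lowest library.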
